A study of Mus musculus with 33 samples.

Results

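The 42 genes described here build the contractile apparatus and the excitable membrane of skeletal muscle. Of them, 27 encode sarcomere proteins, 4 encode subunits of the acetylcholine receptor of the nerve-muscle synapse, and 5 encode proteins of calcium release and uptake. The other 6 are the assembly factors Unc45b, Smyd1 and Klhl41, the creatine kinase Ckm, the fusion protein Mymk and the muscle caveolin Cav3. The members were taken by gene name and not by their values, and each was found by its gene identifier in a table of 55401 genes. All 42 were among the 20073 genes that passed a filter on low counts, which a gene can pass through a single stage in which it is high. The libraries came from polyadenylated RNA of mouse tissue labelled as the frontal bone of the skull vault. They cover 11 embryonic stages, E8.5 and E9, E9.5 and E10, E10.5 and E11, E11.5 and E12, E12.5 with E13.5, and E14.5, where the number after E is the embryonic day. There were 3 libraries at each stage and 33 in all. The labels name no strain, genotype, sex or treatment, so the groups are defined by stage alone. Whether the 3 libraries per stage came from separate embryos, pools or repeats of a single preparation is not stated, and the p-values measure the spread between these libraries.

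In skeletal muscle, myosin thick filaments slide along actin thin filaments, which are anchored at the Z-disc, while titin spans from the Z-disc to the middle of the sarcomere. A motor nerve releases acetylcholine onto receptors of the muscle membrane, the L-type calcium channel of the transverse tubule senses the voltage change, and the ryanodine receptor then releases calcium from the sarcoplasmic reticulum. Troponin on the thin filament binds the calcium, and a calcium pump takes it back up. Muscle fibres form when committed myoblasts, driven by factors such as Myod1 and Myog, leave the cell cycle and fuse, and embryonic fibres use developmental isoforms of many of these proteins.

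Total counts ran from 14516518 to 19964404 per library with a median of 17081223. Levels are in CPM, counts scaled to library size after correction for library composition, given per library or as mean ± SD over n = 3. Fold changes are on the log2 scale with an approximate standard error, and p-values come from edgeR's quasi-likelihood test, adjusted over all genes tested. In whole tissue, fewer muscle cells and less RNA per muscle cell cannot be told apart. As a check of the labelled tissue, the summed level of 8 bone markers was 2491 CPM at E14.5, against 64.4 CPM at E8.5. Runx2, Sp7, Ibsp, Spp1, Col1a1 and Dmp1 were higher. Alpl and Bglap did not pass (log2 fold change 0.11 ± 0.11 and 0.67 ± 0.67, adjusted p = 0.375 and 0.371). Ibsp, which encodes bone sialoprotein, was at 0 counts in all libraries at E9 and E9.5. Libraries of E12 and E13.5 stood apart from each other: the members summed to 259, 216 and 152 CPM in the 3 E12 libraries and to 636, 627 and 857 CPM in those of E13.5. The labels give no batch for them, and counts of members that changed on leaving out one of these libraries are given beside the results.

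The muscle genes had no joint rise before E11, rose in part at E11 and E11.5, and rose together between E12.5 and E13.5. Their summed level was 99.97 ± 3.83 CPM at E8.5, 85.1 ± 3.78 at E9, 148.6 ± 5.24 at E9.5, 86.8 ± 0.824 at E10, 81.2 ± 4.83 at E10.5, 130.4 ± 5.42 at E11, 190.4 ± 6.38 at E11.5, 209 ± 53.8 at E12, 142.8 ± 4.45 at E12.5, 707 ± 130.4 at E13.5 and 1088 ± 52.9 at E14.5. The E9.5 sum was above that of E11, and Tpm2 and Des had the largest gains in CPM at E9.5 against E9, as given with the smooth muscle markers further on. All 42 changed over the stages, where 95.3% of all genes did. Of these, 41 were higher and 0 lower at E14.5 compared with E8.5, against 41.1% and 33.5% of all genes. The median log2 fold change was 4.55 over the members and 0.16 over all genes tested. The remaining member was Actn3, the alpha-actinin of fast fibres, with 8.29, 6.59 and 7.05 CPM at E14.5 and 8.004, 9.23 and 6.31 CPM at E8.5, where the stages overlapped (log2 fold change -0.10 ± 0.18, adjusted p = 0.634). No count of Myoz2, Mymk, Cav3 or Xirp1 was found at E8.5. Against a floor of 3 counts over the E8.5 group, these were at least 37.1-fold, 52.3-fold, 48.3-fold and 11.1-fold higher at E14.5.

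**Figure D1:**
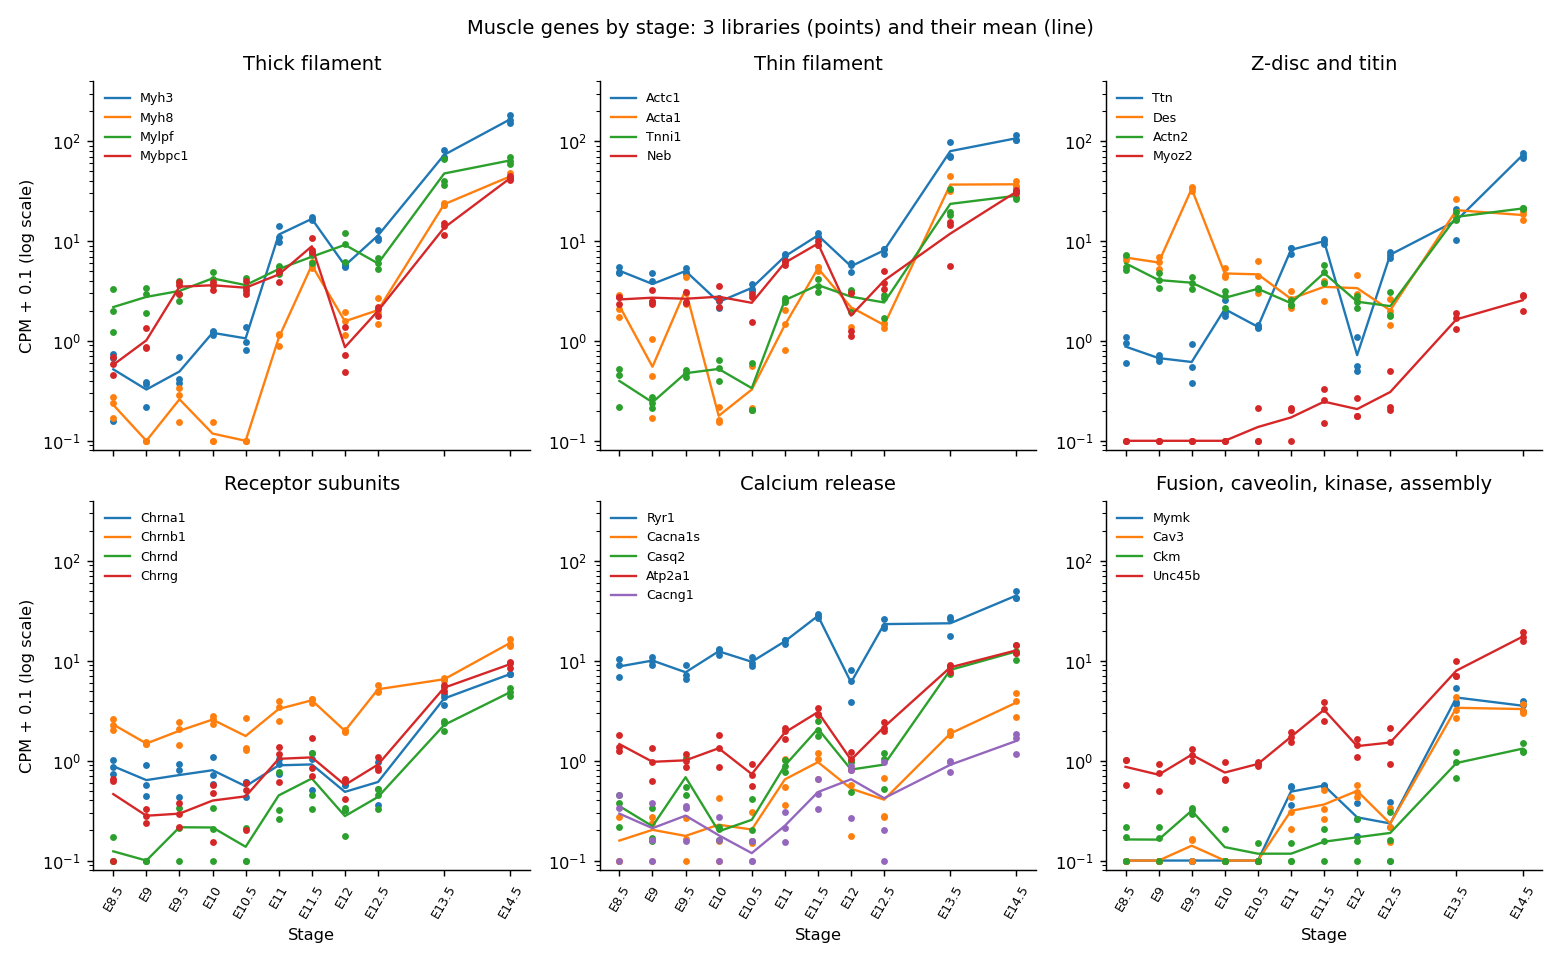
CPM plus 0.1 on a log axis against stage for 25 members in 6 panels by role, with a point per library and a line through the means. The step between E12.5 and E13.5 is visible in every panel, though not for Chrnb1, Ryr1 and Cacng1; Des has a separate peak at E9.5, and Ttn, Mybpc1 and Ryr1 dip at E12.

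The window before the start site is printed for 5 members whose levels carry the order described below: the embryonic myosin Myh3, the myosin light chain Mylpf, desmin (Des), and the receptor subunits Chrna1 and Chrng. The sequences are from RefSeq promoter windows on GRCm38.p6, which run from 250 bases before to 50 bases after a gene's start, and 33 of the 42 members had at least 1 window. The 250 bases before the start are printed 5′ to 3′ on the gene's strand. They lie at chr11:67078050-67078299 (plus strand), chr7:127211358-127211607 (plus), chr1:75360042-75360291 (plus), chr2:73580339-73580588 (minus) and chr1:87205561-87205810 (plus). Capitals mark each match to the E-box letters CANNTG, the core recognised by myogenic factors of the Myod1 family.
Myh3: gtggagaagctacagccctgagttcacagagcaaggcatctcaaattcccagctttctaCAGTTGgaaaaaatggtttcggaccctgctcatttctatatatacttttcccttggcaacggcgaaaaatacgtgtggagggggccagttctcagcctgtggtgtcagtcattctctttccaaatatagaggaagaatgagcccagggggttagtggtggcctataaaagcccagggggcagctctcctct
Mylpf: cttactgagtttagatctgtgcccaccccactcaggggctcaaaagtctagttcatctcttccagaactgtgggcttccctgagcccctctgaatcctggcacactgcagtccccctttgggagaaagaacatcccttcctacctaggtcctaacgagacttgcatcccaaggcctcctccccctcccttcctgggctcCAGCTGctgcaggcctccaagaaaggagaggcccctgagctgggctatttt
Des: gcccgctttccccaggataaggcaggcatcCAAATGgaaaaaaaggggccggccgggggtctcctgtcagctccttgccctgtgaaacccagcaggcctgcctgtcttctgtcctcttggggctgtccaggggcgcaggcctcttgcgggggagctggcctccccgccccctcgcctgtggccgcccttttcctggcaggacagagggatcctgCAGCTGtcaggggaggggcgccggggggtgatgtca
Chrna1: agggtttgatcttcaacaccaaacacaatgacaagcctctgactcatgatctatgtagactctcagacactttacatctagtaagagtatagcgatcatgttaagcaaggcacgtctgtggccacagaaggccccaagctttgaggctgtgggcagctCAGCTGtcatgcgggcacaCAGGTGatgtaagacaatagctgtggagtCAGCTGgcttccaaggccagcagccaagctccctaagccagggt
Chrng: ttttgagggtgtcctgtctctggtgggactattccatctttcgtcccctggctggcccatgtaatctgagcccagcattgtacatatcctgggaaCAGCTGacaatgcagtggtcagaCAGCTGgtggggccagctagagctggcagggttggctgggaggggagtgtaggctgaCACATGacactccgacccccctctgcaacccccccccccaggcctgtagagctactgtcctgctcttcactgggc
Chrna1 and Chrng had 3 matches each, Des 2, and Myh3 and Mylpf 1 each. Of the 37 windows of the members, 32 (86.5%) held CANNTG, against 72.3% of all 32851 windows. The subset CAGCTG, which is part of CANNTG and reads the same on both strands, was in 18 member windows (48.6%) against 16.3% of all. Its matches in Chrna1 began 92 and 44 bases before the start, in Chrng 155 and 132 bases before it, in Mylpf 51 and in Des 36 bases before it, and Myh3 had none. The MEF2 box, searched on both strands, was in 6 member windows (16.2%) against 3.69%, and the CArG box, searched on both strands, was in 4 (10.8%) against 1.63%. Windows and not genes were counted, so a match in overlapping windows of a gene counts in each. This held for the MEF2 and CArG boxes of Ldb3 and for a CAGCTG of Tnni1. CATTCC, the MCAT element read on both strands, was in 10 (27.0%) against 14.7%. TATAAA on the gene's strand was in 4 (10.8%) against 8.32%. A match to such letters is a description of the window and not a site of binding.

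Between E8.5 and E10.5 the muscle genes did not move together. At E10.5 against E8.5, 3 members were higher and 9 lower, against 28.2% and 21.3% of all genes, so the share of members that fell was close to the background and the share that rose was below it. By single steps, 0 members were higher at E9 against E8.5, as were 2515 of the 20073 genes, and 5 were lower (7.66% of all genes). At E9.5 against E9, 7 were higher and 1, Myh7, lower, with shares of all genes given beside the smooth muscle markers further on. Those higher were Acta1 (log2 fold change 2.74 ± 0.43), Casq2 (2.17 ± 0.60), Mybpc1, Des, Tpm2, Myh8 and Tnni2. Myh8 and Tnni2 were under 1 CPM in each E9.5 library. At E10 against E9.5, 3 were higher, as were 2905 genes, and 7 lower (12.3%), and the next step had 0 higher and 1 lower, E10.5 against E10 (5.73% and 2.74%). At an unadjusted p under 0.05, 1 member was higher at E9 and 2 at E10.5 in these steps. The 3 that rose at E10.5 over E8.5 were Mybpc1, Myh3 and Tnnc1. Mybpc1, the slow type of myosin-binding protein C, had 3.87, 3.19 and 2.88 CPM at E10.5 and 0.491, 0.355 and 0.585 CPM at E8.5 (log2 fold change 2.75 ± 0.29, adjusted p = 3.63e-09). Among the 9 that fell was Acta1, skeletal alpha-actin, with 0.112, 0.103 and 0.462 CPM at E10.5 against 2.81, 1.63 and 1.99 CPM at E8.5 (log2 fold change -3.18 ± 0.51, adjusted p = 6.29e-06). The slow and cardiac beta-myosin Myh7 had 1.96, 2.32 and 2.05 CPM at E10.5 and 9.76, 5.68 and 7.19 CPM at E8.5, without overlap (log2 fold change -1.83 ± 0.24, adjusted p = 1.79e-07). Actn3 fell by 1.96 ± 0.21. Without the third library of E13.5, which is in neither stage, 6 members were higher at E10.5.

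At E11 the first joint rise appeared. Against E10.5, 24 members were higher and 1 lower, against 19.2% and 17.3% of all genes, with medians of 1.22 over the members and 0.02 over all genes. By role, 5 of 8 thick filament genes, 7 of 11 thin filament genes, 1 of 8 Z-disc and titin genes, 3 of 4 receptor subunits, 4 of 5 calcium release genes, 2 of 3 assembly factors, Mymk and Cav3 were higher. The member that fell was Des (log2 fold change -0.83 ± 0.25, adjusted p = 0.00981), and it did not pass without the first E10.5 library or without the third E11 library. At E11.5 against E11, 14 members were higher and 0 lower, where 10.7% and 12.3% of all genes were. Among them Myh8, the perinatal myosin, rose by 2.52 ± 0.22 and Acta1 by 1.96 ± 0.32.

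At E12 some of these gains were lost, though the members' summed level, 209 ± 53.8 CPM, was not below the 190.4 ± 6.38 CPM of E11.5. Against E11.5, 19 members were lower and 3 higher, where 35.6% and 33.3% of all genes were, with medians of -0.94 over the members and -0.08 over all genes. Longer members fell more often, as given with exonic length further on. Of 8 bone markers 4 rose at E11.5 and 3 fell at E12, the latter near the share of all genes. Ibsp changed most, at 0.0526 ± 0.0912 CPM at E11, 15.1 ± 0.634 at E11.5 and 0.0370 ± 0.0641 at E12. Col1a1 and Spp1, which rose at E11.5, did not pass at E12 (log2 fold change -0.02 ± 0.15 and 0.28 ± 0.25). At E12.5 against E12, 9 members were higher and 8 lower, against 32% and 31% of all genes. The 8 became 3 without the first E12 or the second E12.5 library, and 4 without the second E12 library. The 3 that rose at E12 were Tpm2, Tnni2 and Tnnt1, and that count ran from 1 to 5 with single libraries left out. Leaving out the first E8.5, any E11.5 library but the second, or the first or second E12 library left 1, and leaving out the third E12 library gave 5. The E12 libraries differed widely in some members: Tpm2, the beta-tropomyosin, had 172, 133 and 84.1 CPM at E12, against 29.3, 29.8 and 31.1 CPM at E11.5 (log2 fold change 2.11 ± 0.16, adjusted p = 1.39e-11).

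Of the 10 steps between neighbouring stages, the one with the largest median came between E12.5 and E13.5. At E13.5, 39 members were higher than at E12.5 and 0 lower, against 27.2% and 25.9% of all genes. The median log2 fold change was 2.84 over the members and 0.01 over all genes. Bone markers moved in the same step, with 5 of 8 higher and 0 lower, a median of 2.08 and sums of 1727 to 1758 CPM at E13.5 against 269 to 327 CPM at E12.5. Their part in the members' step was not tested. All 27 sarcomere genes passed, as did 3 of 4 receptor subunits and 3 of 5 calcium release genes. The members that did not pass were Chrnb1 (log2 fold change 0.34 ± 0.19, adjusted p = 0.125), Ryr1 (log2 fold change 0.03 ± 0.17, adjusted p = 0.888) and Cacng1 (log2 fold change 1.32 ± 0.73, adjusted p = 0.127). At E14.5 against E13.5, 20 were higher and 0 lower, against 24% and 26.9% of all genes, with a member median of 0.57. In this last step all 4 receptor subunits and all 3 assembly factors rose, but 10 of 27 sarcomere genes did. Over the whole late window, E14.5 against E12.5, all 42 members were higher, where 25.3% of all genes were. Across the middle window, E12.5 against E10.5, 22 were higher and 3 lower, against 18.8% and 17.2% of all genes.

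Set against E8.5 by the test alone, 3 members were higher at E9.5 (17.2% of all genes), 5 at E10 (30.2%), 24 at E11 (36.9%), 31 at E11.5 (39.5%), 20 at E12 (37.9% of genes), 24 at E12.5 (36.4% of genes) and 40 at E13.5 (38.6% of genes). The members lower than at E8.5 numbered 4 at E9.5 (11.4%), 6 at E10 (22.2%), 4 at E11 (28.6%), 3 at E11.5 (32.6%), 6 at E12 (29.2% of genes), 4 at E12.5 (27.9% of genes) and 1 at E13.5 (30.5% of genes). The member lower at E13.5 was Actn3, with 4.397, 4.95 and 5.50 CPM at E13.5.

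To order the members, onset was defined as the first stage with an adjusted p below 0.05, at least a 2-fold rise over E8.5 and a mean of at least 1 CPM. Since some values fell back at E12, the lasting onset was also taken, the first stage from which all later stages met the rule. Onset was reached by 4 members by E10.5 (15.9% of all genes), by 13 by E11 (22.3%), by 21 by E11.5 (26.7%), by 26 by E12.5 (33.1%), by 36 by E13.5 (36.4%) and by 38 by E14.5 (39.9%). Mybpc1 and Des were first, at E9.5, followed by Myh3 and Ttn at E10. First onsets by E9 numbered 0 (2.35%), by E9.5 2 (6.48%), by E10 4 (14.1%) and by E12 25 (32.6%). Counted at each stage by itself, the rule was met by 0 members at E9 (2.35%), 2 at E9.5 (5.55%), 3 at E10 (12.4%), 1 at E10.5 (2310 of 20073 genes), 12 at E11 (19.4%), 20 at E11.5 (22.5%), 12 at E12 (19.2%), 12 at E12.5 (18.4%), 36 at E13.5 (22.5%) and 38 at E14.5 (25.1%). At E11, 10 of 27 sarcomere genes met the rule, against 0 of 4 receptor subunits and 0 of 5 calcium release genes. The counts were 14, 0 and 3 at E11.5, then 9, 1 and 1 at E12.5, and 23, 4 and 4 at E13.5. The median first onset was at E11.5 for sarcomere genes, at E13.5 for receptor subunits and at E11.5 for calcium release genes. Members are not replicates, and these differences between roles were not tested.

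Lasting onset separated the sarcomere genes from each other. Myh3, Myl1, Myl4, Mylpf, Tnnc1 and Tnni1 met the rule from E11 on, and Myh8 from E11.5 on. Klhl41, Ryr1, Chrnb1, Mybpc1 and Ttn followed at E12.5. A further 24 members met it from E13.5 on, and Cacng1 and Ckm at E14.5. Lasting onset by E14.5 is the same as meeting the rule at E14.5, which 38 members and 25.1% of all genes did. For the earlier lasting onsets no share of all genes is given here, so these counts have no background beside them. Counting members without a lasting onset as later than E14.5, its median was day 11.25 for thick filament genes and E13.5 for thin filament genes, receptor subunits and calcium release genes alike. Myh7, Actn3, Tcap and Xirp1 never met the rule, since Myh7 and Actn3 were never 2-fold above their E8.5 level and the means of Tcap and Xirp1 stayed under 1 CPM.

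The distance between the roles depended on the minimum of 1 CPM. With a minimum of 0.2 CPM, 22 members had their onset by E11, and the median onset was day 11 for sarcomere genes and day 11.75 for receptor subunits. Scaled to each member's own E14.5 mean, which needs no minimum, the median level at E11 was 8.47% for sarcomere genes, 10.6% for receptor subunits and 14.4% for calcium release genes. At E12.5 these medians were 9.08%, 7.96% and 16.5%, and at E13.5 they were 74.2%, 51.0% and 54.7%. By this measure receptor subunits stood above sarcomere genes at E11 and below them at E12.5 and E13.5. They already stood above them at E8.5, when the medians were 2.78% for sarcomere genes, 7.33% for receptor subunits and 10.8% for calcium release genes. The order at E11 therefore does not give an order of rise. Without the second E8.5 library the median onset of calcium release genes was at E13.5.

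**Figure D2:**
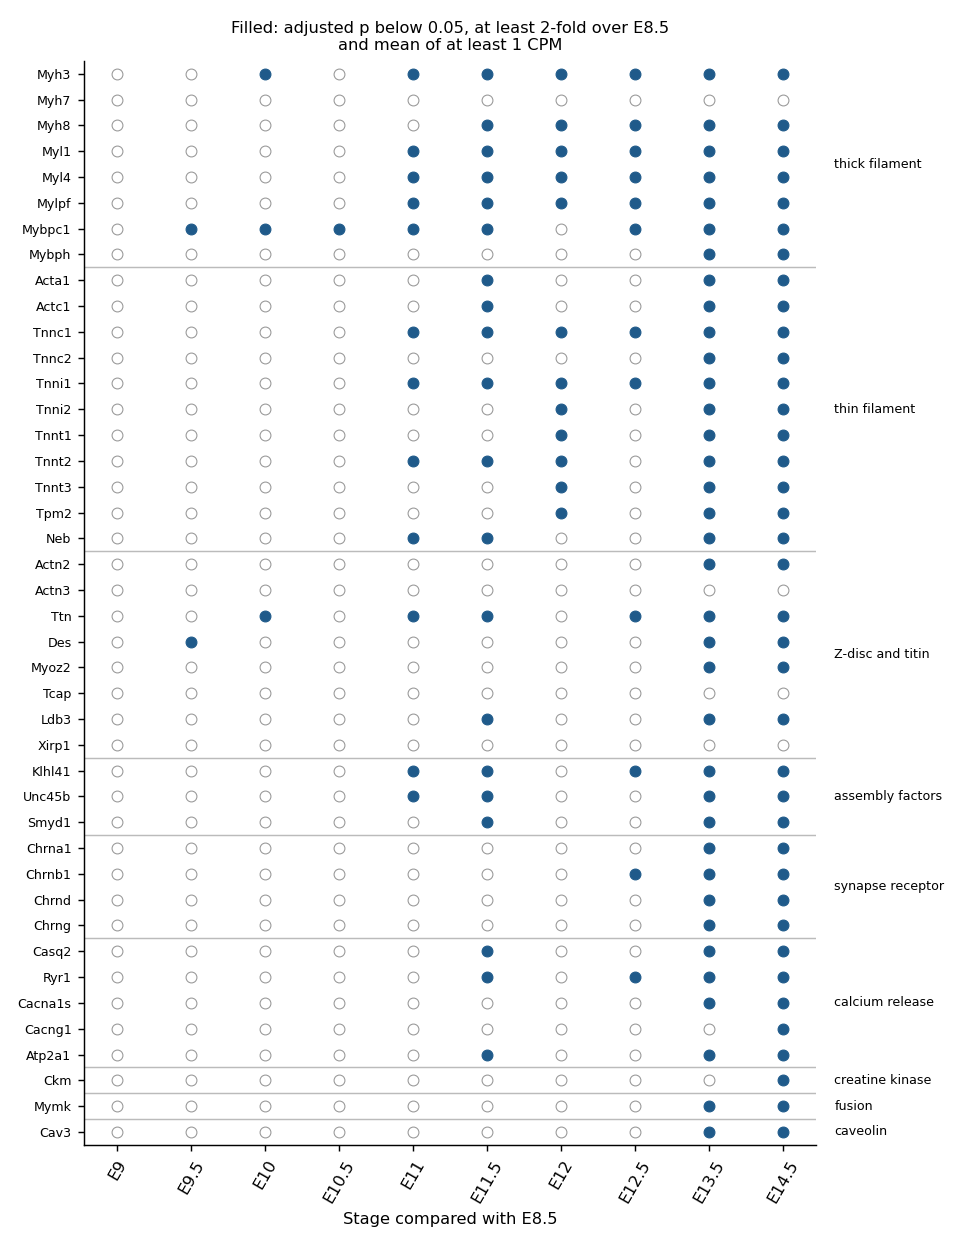
Members in rows by role and stages in columns; a filled circle marks an adjusted p below 0.05, at least 2-fold over E8.5 and a mean of at least 1 CPM. Filled circles run from E11 on for 6 sarcomere genes, are scattered at E12, and fill 36 of 42 rows at E13.5.

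By the rule with 1 CPM, the thick filament genes had the earliest median lasting onset of the roles, day 11.25. Their median first onset, day 11, was shared by the assembly factors. Scaled to its own E14.5 mean, Myh3 first reached 10% at E13.5. Myh3, the embryonic myosin heavy chain, had 1.29, 0.875 and 0.719 CPM at E10.5, 10.8, 14.0 and 9.74 at E11, 10.7, 10.2 and 12.9 at E12.5, 69.5, 68.2 and 81.1 at E13.5 and 182, 162 and 154 at E14.5. No E11 library overlapped with those of E10.5 (log2 fold change 3.58 ± 0.22, adjusted p = 7.52e-14), and none of E13.5 with those of E12.5 (log2 fold change 2.69 ± 0.15, adjusted p = 1.18e-14). Mylpf, the fast regulatory light chain, had 69.9, 58.7 and 63.8 CPM at E14.5 and 1.896, 1.14 and 3.22 CPM at E8.5 (log2 fold change 4.91 ± 0.27, adjusted p = 5.89e-16). Its early course was slow: it stood at 3.52 ± 0.551 CPM at E10.5, 6.86 ± 0.812 at E11.5 and 5.87 ± 0.728 at E12.5, and 47.4 ± 16.3 at E13.5. Of the E13.5 libraries the third was highest, at 66.0 CPM.

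Mybpc1 was the earliest thick filament gene. It had 2.83, 3.81 and 3.54 CPM at E9.5 against 0.765, 0.746 and 1.23 CPM at E9 (log2 fold change 1.903 ± 0.25, adjusted p = 1.75e-06), a level of 8.76 ± 1.59 at E11.5, 0.766 ± 0.459 at E12 and 1.904 ± 0.215 at stage E12.5, and 42.7 ± 1.91 at E14.5. The E12 and E11.5 libraries did not overlap (log2 fold change -3.42 ± 0.24, adjusted p = 2.06e-12). Mybph, the related protein H, whose exon bases are 49.9% covered by Adora1 on the other strand, came last, with 6.20, 6.99 and 7.97 CPM at E13.5 against 0.803, 1.61 and 0.771 CPM at E12.5 (log2 fold change 2.70 ± 0.27, adjusted p = 1.2e-09). Myh8 had no count in any library of E10.5, and had 1.08, 1.05 and 0.790 CPM at E11, 5.61, 6.05 and 5.21 at E11.5 and 47.5, 41.9 and 43.8 at E14.5. Myh7 fell early and rose late, with 13.4, 12.05 and 11.3 CPM at E14.5 and 9.76, 5.68 and 7.19 CPM at E8.5 (log2 fold change 0.70 ± 0.21, adjusted p = 0.00344). The light chains Myl1 and Myl4 both rose at E11, by 2.64 ± 0.60 and 3.15 ± 0.51 on the log2 scale, and again at E13.5, by 3.82 ± 0.37 and 2.91 ± 0.33.

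Most thin filament genes had a later lasting onset. Actc1, the cardiac actin that embryonic skeletal muscle also uses, had 71.1, 69.5 and 97.4 CPM at E13.5 and 8.32, 8.26 and 7.36 CPM at E12.5, without overlap (log2 fold change 3.31 ± 0.14, adjusted p = 2.7e-17). It had gained less at E11, when it stood at 6.93 ± 0.536 CPM against 3.29 ± 0.267 CPM at E10.5 (log2 fold change 1.07 ± 0.16, adjusted p = 4.99e-06). Tpm2 was at 29.5 to 37.7 CPM in the mean at all stages but E9.5, E12, E13.5 and E14.5, and had 106, 107 and 100.1 CPM at E14.5 against 37.8, 33.9 and 35.2 CPM at E8.5 (log2 fold change 1.55 ± 0.16, adjusted p = 8.34e-10). Tpm2 is also used by smooth muscle, whose markers are given further on.

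The earliest thin filament onsets, at E11, were those of Tnnc1, Tnni1, Tnnt2 and Neb. Tnni1, the slow troponin I, had 2.57, 2.33 and 2.47 CPM at E11 and 0.504, 0.103 and 0.103 CPM at E10.5 (log2 fold change 3.38 ± 0.41, adjusted p = 1.24e-07). Tnnc1, the slow and cardiac troponin C, had 2.57, 2.83 and 3.58 CPM and 0.841, 1.18 and 0.822 CPM at the same stages (log2 fold change 1.65 ± 0.38, adjusted p = 0.000902). Both were above all E10.5 libraries in all 3 E11 libraries. Neb, the ruler protein nebulin, had 5.70, 6.05 and 6.16 CPM at E11 against 2.86, 2.62 and 1.44 CPM at E10.5 (log2 fold change 1.37 ± 0.30, adjusted p = 0.000552). At E14.5 it had 32.2, 30.3 and 30.8 CPM. Tnnt2, the cardiac troponin T that embryonic skeletal muscle also uses, was at 1.27 ± 0.476 CPM at E11 and 23.4 ± 0.623 CPM at E14.5. With the minimum of 1 CPM, Tnnc2, the fast troponin C, had the latest onset. It had 4.397, 5.35 and 8.34 CPM at E13.5 against 0.516, 0.467 and 0.534 CPM at E12.5 (log2 fold change 3.56 ± 0.41, adjusted p = 4.02e-08). Below that minimum Tnnc2 had already risen at E11, to 0.719, 0.499 and 0.474 CPM (against E10.5, log2 fold change 3.76 ± 0.85, adjusted p = 0.000836). However, 74.0% of its exon bases overlap those of Ube2c on the other strand, and the strand setting of the counting is not given in the sources used here, so its reads and those of Ube2c may not be told apart. The other fast troponins, Tnni2 and Tnnt3, and the slow Tnnt1 rose at E13.5 by 3.61 ± 0.48, 3.09 ± 0.40 and 2.32 ± 0.24.

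Z-disc genes followed several courses. Ttn, the giant spring titin, had 1.23, 1.29 and 1.34 CPM at E10.5, 8.37, 8.49 and 7.32 at E11, 9.20, 9.93 and 10.48 at E11.5, 0.467, 0.394 and 0.999 at E12, 7.23, 7.74 and 6.64 at E12.5, 21.0, 16.6 and 10.2 at E13.5 and 71.8, 76.7 and 68.4 at E14.5. It rose at E11 (log2 fold change 2.64 ± 0.24, adjusted p = 3.81e-10), fell at E12 (log2 fold change -3.89 ± 0.28, adjusted p = 2.79e-12), and rose at each of the 3 later steps. Des, the intermediate filament desmin that links Z-discs, had 31.5, 33.6 and 34.6 CPM at E9.5, 4.23, 4.45 and 5.23 at E10, 2.52, 1.35 and 1.898 at E12.5, 17.2, 17.3 and 26.3 at E13.5 and 19.7, 18.6 and 16.0 at E14.5. Its E9.5 level exceeded that of E9 (log2 fold change 2.46 ± 0.21, adjusted p = 5.65e-10), and all E9.5 libraries were above all those of E14.5.

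Actn2, the alpha-actinin of all fibres and of heart, had 16.6, 16.1 and 19.5 CPM at E13.5 against 1.72, 3.01 and 1.66 CPM at E12.5 (log2 fold change 3.01 ± 0.19, adjusted p = 1.81e-13). Its E8.5 libraries had 5.05, 7.17 and 5.44 CPM, and their mean was above that of every stage from E9 to E12.5. Myoz2, which tethers calcineurin at the Z-disc, had no count up to E10 and 1.80, 1.22 and 1.61 CPM at E13.5 against 0.402, 0.104 and 0.119 CPM at E12.5 (log2 fold change 2.86 ± 0.54, adjusted p = 0.000153). Ldb3, a PDZ and LIM protein of the Z-disc, rose at E11.5 (log2 fold change 1.57 ± 0.46, adjusted p = 0.0116) and at E13.5 (log2 fold change 2.33 ± 0.39, adjusted p = 1.19e-05). Tcap, the titin cap, stayed between 0.226 CPM in the mean at E10.5 and 0.929 at E13.5. Its difference at E14.5 against E8.5 (log2 fold change 1.14 ± 0.48, adjusted p = 0.0335) did not pass without the second or the third E8.5 library or without the first or second E14.5 library, with adjusted p of 0.0789, 0.0882, 0.0904 and 0.0648. Xirp1, an actin-binding repeat protein, reached 0.731 ± 0.0823 CPM at E14.5.

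The factors of assembly and fusion began before or with the main step. Unc45b, a myosin chaperone, had 1.64, 1.83 and 1.42 CPM at E11 against 0.785, 0.875 and 0.822 CPM at E10.5 (log2 fold change 0.97 ± 0.30, adjusted p = 0.0106), and 19.2, 15.6 and 17.3 CPM at E14.5. Klhl41, which stabilises nebulin, had 1.28, 2.05 and 1.26 CPM at E11 against 0.448, 0.463 and 0.257 CPM at E10.5 (log2 fold change 1.96 ± 0.36, adjusted p = 6.14e-05). Smyd1, a muscle methyltransferase that binds myosin, had 7.78, 8.57 and 7.59 CPM at E13.5 against 0.631, 1.71 and 2.02 CPM at E12.5 (log2 fold change 2.45 ± 0.28, adjusted p = 1.58e-08). All 3 rose at E13.5 and again at E14.5. Mymk, the membrane protein that drives myoblast fusion, had no count in any library from E8.5 to E10.5, and had 0.462, 0.444 and 0.263 CPM at E11, 0.287, 0 and 0.119 at E12.5, 3.61, 3.77 and 5.19 at E13.5 and 3.85, 3.48 and 3.02 at E14.5. Its E13.5 libraries were all above those of E12.5 (log2 fold change 4.92 ± 0.48, adjusted p = 4.62e-08), and its level did not pass as different at E14.5 against E13.5 (log2 fold change -0.28 ± 0.31, adjusted p = 0.483).

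Cav3, the caveolin of the muscle membrane and developing transverse tubules, had 3.10, 2.55 and 4.20 CPM at E13.5 against 0.115, 0.0519 and 0.237 CPM at E12.5 (log2 fold change 4.57 ± 0.46, adjusted p = 3.45e-08). Between E11 and E12.5 its mean lay between 0.135 and 0.398 CPM. Ckm, the cytosolic creatine kinase that buffers ATP in mature fibres, was the last member of the list with Cacng1 to meet the onset rule. It had 0, 0.208 and 0.0593 CPM at E12.5, 0.564, 0.867 and 1.11 CPM at E13.5 and 1.39, 1.12 and 1.14 CPM at E14.5, and rose at E13.5 (log2 fold change 3.09 ± 0.69, adjusted p = 0.000439). The antisense gene A930016O22Rik covers 15.5% of its exon bases.

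The 4 receptor subunits differed in their level before E13.5. Chrnb1, the beta subunit, had 2.18, 1.92 and 2.51 CPM at E8.5, 2.41, 3.33 and 3.84 at E11, 5.56, 4.78 and 4.92 at E12.5, 6.37, 6.58 and 6.36 at E13.5 and 14.6, 14.0 and 16.5 at E14.5. It was thus found from the first stage on, as was Chrna1 at a lower level, with 0.772, 0.923 and 0.643 CPM at E8.5. Chrnb1 rose at E12.5 against E12 (log2 fold change 1.43 ± 0.22, adjusted p = 2.13e-06) and again at E14.5 against E13.5 (log2 fold change 1.23 ± 0.18, adjusted p = 1.1e-06). Chrna1, the alpha subunit that binds acetylcholine, had 0.860, 0.260 and 0.415 CPM at E12.5, 3.50, 4.28 and 4.51 at E13.5 and 7.33, 7.23 and 7.28 at E14.5. Chrng, the gamma subunit of the fetal receptor, had 0.746, 0.987 and 0.712 CPM at E12.5, 5.64, 4.89 and 5.31 at E13.5 and 9.41, 9.64 and 8.47 at E14.5. Chrnd, the delta subunit, had 0.229, 0.415 and 0.356 CPM at E12.5, 2.37, 1.89 and 2.28 at E13.5 and 4.33, 5.19 and 4.76 at E14.5. In these 3 subunits no library of E13.5 overlapped with E12.5, and none of E14.5 with E13.5. At E13.5 against E12.5 the log2 fold changes were 2.997 ± 0.35 for Chrna1, 2.68 ± 0.38 for Chrng and 2.67 ± 0.53 for Chrnd. At E14.5 against E13.5 they were 0.83 ± 0.26, 0.80 ± 0.31 and 1.13 ± 0.40, with adjusted p of 0.00931, 0.0305 and 0.022. At E11 against E10.5, Chrnb1, Chrnd and Chrng passed, with 0.95 ± 0.22, 3.08 ± 0.99 and 1.47 ± 0.52.

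Among the calcium genes, the ryanodine receptor had the highest CPM at every stage. CPM is not corrected for exonic length, which is 21838 bases for Ryr1 and 3477 for Atp2a1, so this does not rank transcript numbers. Ryr1, the release channel of the sarcoplasmic reticulum, had 6.81, 9.02 and 10.2 CPM at E8.5, 14.6, 15.9 and 16.2 at E11, 28.0, 29.3 and 26.9 at E11.5, 3.73, 6.15 and 8.05 at E12, 22.2, 21.3 and 26.0 at E12.5, 27.2, 26.3 and 17.5 at E13.5 and 50.2, 42.2 and 42.7 at E14.5. It rose at E11 and E11.5, fell at E12 (log2 fold change -2.20 ± 0.19, adjusted p = 6.27e-11), returned at E12.5 and rose at E14.5 (log2 fold change 0.92 ± 0.16, adjusted p = 2.39e-05). Atp2a1, the calcium pump of the reticulum, had 2.78, 3.28 and 2.84 CPM at E11.5, 2.35, 1.87 and 2.02 at E12.5, 8.85, 7.70 and 8.95 at E13.5 and 11.8, 14.2 and 11.9 at E14.5. Casq2, a calsequestrin that stores calcium in the reticulum, had 0.0560, 0.309 and 0.103 CPM at E10.5, 1.68, 1.92 and 2.37 at E11.5, 1.09, 0.935 and 0.415 at E12.5, 8.40, 7.34 and 8.27 at E13.5 and 14.4, 10.2 and 12.4 at E14.5. Both rose at E13.5 against E12.5, Atp2a1 by 2.03 ± 0.21 and Casq2 by 3.28 ± 0.30, with no overlap between the stages.

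With the minimum of 1 CPM, the subunits of the voltage sensor came after the ryanodine receptor in the order of onset. At a minimum of 0.2 CPM Cacna1s met the rule at E11 (over E8.5, log2 fold change 2.94 ± 0.96, adjusted p = 0.00828), and Ryr1, under 2-fold there (0.84 ± 0.18), met it at E11.5, so that this order turned round. Cacna1s, the pore subunit, had 0, 0 and 0.175 CPM at E8.5, 0.257, 0.444 and 0.947 at E11, 1.69, 1.89 and 1.73 at E13.5 and 4.71, 2.62 and 3.84 at E14.5. It passed at E11 against E10.5 (log2 fold change 2.30 ± 0.82, adjusted p = 0.0277) and at E13.5 against E12.5 (log2 fold change 2.47 ± 0.60, adjusted p = 0.00101). Cacng1, the gamma subunit, had 0.860, 0.104 and 0 CPM at E12.5, 0.902, 0.663 and 0.864 at E13.5 and 1.76, 1.07 and 1.60 at E14.5, and passed in no single step. Over the late window it was higher at E14.5 than at E12.5 (log2 fold change 2.19 ± 0.68, adjusted p = 0.00767). An antisense gene, Gm37759, covers 19.98% of the exon bases of Cacna1s, and Rabep2 covers 21.9% of those of Atp2a1.

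Within protein families, shares were computed in CPM per kilobase of exon, so that genes of unequal length could be compared. At E14.5, Myh3 made up 84.1% ± 0.530 (SD, n = 3) of the heavy chain signal of Myh3, Myh8 and Myh7, Myh8 made up 11.6% ± 0.576 and Myh7 4.35% ± 0.0490. At E8.5 the share of Myh7 was 91.6% ± 5.20, on 366 heavy chain counts over the stage, and it was 61.2% ± 8.25 at E10.5, 10.4% ± 2.83 at E11 and 8.20% ± 2.52 at E12.5. Myh3 held 55.6% ± 1.07 at E10, on 122 heavy chain counts over the stage, 38.8% ± 8.25 at E10.5 and 85.8% ± 3.25 at E11, so that it led at E10, was second to Myh7 at E10.5 and led again at E11. Without length correction Myh7 led at E10, with Myh3 at 46.7%, and at E14.5 Myh8 held 19.97%. Of the sarcomeric actins, Actc1 held 73.3% ± 0.443 at E14.5 and Acta1 the rest. Slow isoforms led among the troponins: Tnnc1 held 76.0% ± 0.560 of troponin C, Tnni1 71.7% ± 1.61 of troponin I and Tnnt1 53.0% ± 2.05 of troponin T at E14.5. Without length correction Tnnt1 was close to Tnnt2, at 41.6% and 40.1% of troponin T. The troponin C share rests on Tnnc2, whose exon bases overlap those of Ube2c, as given above. The share of Tnnt1 was 77.0% ± 8.19 at E12.5 and 62.1% ± 1.55 at E13.5, while that of the fast Tnnt3 was 17.6% ± 8.11, 25.2% ± 1.09 and, at E14.5, 32.4% ± 2.24.

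Of the essential light chains at E14.5, Myl1 held 57.3% ± 3.04 and Myl4 42.7% ± 3.04 per kilobase, but without length correction Myl4 was the larger, at 62.5%. Actn2 held 68.9% ± 2.52 of the alpha-actinins at E14.5, against 36.5% ± 3.63 at E8.5, when Actn3 was the larger. Chrnb1 held 82.9% ± 1.11 of the receptor subunits at E12.5, 47.0% ± 1.63 at E13.5 and 52.8% ± 2.99 at E14.5, and Chrng 8.14% ± 1.86, 23.5% ± 1.55 and 19.6% ± 1.898 at these stages. No test was made on shares, since an exact permutation test of 3 against 3 libraries cannot go below a p of 0.1. The adult fast myosins Myh2 and Myh4 and the adult epsilon receptor subunit Chrne did not pass the filter on low counts.

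Other genes of the same structures were counted in lists by function. Of 40 other sarcomere genes, 32 were tested, of which 26 rose, 2 fell and 4 missed the threshold over the whole course, E14.5 against E8.5, where 41.1% of all genes rose and 33.5% fell. At E13.5 against E12.5, 22 were higher and 1 lower, where 27.2% and 25.9% of all genes were. Myom3 and Myom2, which crosslink thick filaments at the M-band, were at 6.75 ± 0.825 and 6.86 ± 1.101 CPM at E14.5, against 0.506 ± 0.0345 and 0.295 ± 0.102 CPM at E12.5. Of 10 other synapse genes, 9 were tested, with 7 higher and 0 lower at E14.5 against E8.5, and 6 higher and 2 lower at E13.5 against E12.5. The adhesion molecule Ncam1, which nerve cells also express, was at 84.1 ± 5.25 CPM at E14.5 and 15.1 ± 0.389 CPM at E8.5 (log2 fold change 2.47 ± 0.12, adjusted p = 2.63e-17). Ache, the acetylcholinesterase, was at 10.9 ± 0.608 CPM and 5.68 ± 0.652 CPM (log2 fold change 0.95 ± 0.17, adjusted p = 1.34e-05).

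Of 19 triad genes other than the members, 17 were tested. At E14.5 against E8.5, 10 rose and 4 fell, where 41.1% and 33.5% of all genes did. At E13.5 against E12.5, 5 rose and 5 fell with a median of -0.07, shares near the 27.2% and 25.9% of all genes. Hrc, a calcium-binding protein of the reticulum, was at 13.4 ± 1.61 CPM at E14.5 and 0.877 ± 0.305 CPM at E8.5 (log2 fold change 3.94 ± 0.27, adjusted p = 8.14e-14). Ryr3, another ryanodine receptor, was at 16.2 ± 0.851 CPM at E10.5, 18.4 ± 2.75 at E11.5, 1.44 ± 1.02 at E12 and 28.6 ± 2.77 at E14.5. Cacna2d1, a channel subunit that neurons also use, peaked at E11.5 with 105 ± 3.16 CPM and stood at 67.0 ± 2.54 CPM at E14.5. Of 13 dystrophin complex genes, all tested, 10 were higher and 1 lower at E14.5 against E8.5. The integrin Itga7, the laminin chain Lama2 and sarcospan (Sspn) rose by 4.27 ± 0.28, 4.12 ± 0.22 and 4.23 ± 0.30. Of 12 muscle energy genes, 10 were tested, with 7 higher and 1 lower at E14.5 against E8.5, where 41.1% and 33.5% of all genes were. Fabp3, a fatty acid carrier, and Pgam2, the muscle phosphoglycerate mutase, rose by 2.84 ± 0.26 and 1.75 ± 0.22, and Eno3, the muscle enolase, fell (log2 fold change -1.44 ± 0.15, adjusted p = 5.9e-10).

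The regulators of muscle stood beside the members as follows. Of 17 such genes 15 were tested, and 11 were higher and 0 lower at E13.5 against E12.5, where 27.2% and 25.9% of all genes were. Myog, which drives differentiation, had no count up to E9.5 and was at 0.135 ± 0.118 CPM at E10, 0.139 ± 0.105 at E10.5, 2.803 ± 0.273 at E11, 2.87 ± 0.440 at E11.5, 2.14 ± 0.534 at E12, 1.93 ± 0.453 at E12.5, 23.3 ± 5.10 at E13.5 and 22.5 ± 0.976 at E14.5. Myod1, which commits cells to muscle, was at 0.0342 to 0.122 CPM in the mean up to E10.5, then at 0.956 ± 0.0997 at E11, 1.01 ± 0.126 at E11.5, 0.826 ± 0.0451 at E12, 0.567 ± 0.357 at E12.5, 9.596 ± 1.40 at E13.5 and 6.37 ± 0.468 at E14.5. Myog rose at E11 against E10.5 (log2 fold change 4.25 ± 0.41, adjusted p = 1.57e-08) and at E13.5 against E12.5 (log2 fold change 3.60 ± 0.23, adjusted p = 9.36e-12). Myod1 rose at the same steps, by 4.51 ± 0.73 and 4.07 ± 0.36. Myf5, the earliest of these factors, was at 0.179 ± 0.252 CPM at E8.5, 0.452 ± 0.188 at E9, 0.356 ± 0.209 at E9.5, 1.66 ± 0.170 at E10, 1.72 ± 0.393 at E10.5, 0.623 ± 0.137 at E11, 0.299 ± 0.124 at E11.5, 0.245 ± 0.332 at E12, 0.704 ± 0.120 at E12.5, 1.73 ± 0.314 at E13.5 and 2.02 ± 0.356 at E14.5. Pax7, a factor of muscle progenitors that neural and neural crest cells also express, was at 25.4 ± 0.276 CPM at E8.5, 25.5 ± 0.868 at E9, 18.9 ± 1.66 at E9.5, 21.5 ± 0.859 at E10, 18.6 ± 1.29 at E10.5, 8.496 ± 0.863 at E11, 2.24 ± 0.345 at E11.5, 8.01 ± 1.38 at E12, 4.52 ± 1.26 at E12.5, 4.04 ± 0.332 at E13.5 and 4.76 ± 0.644 at E14.5. Msc, a factor of head muscle, rose by 2.98 ± 0.28 at E13.5, and Mymx, the partner of Mymk in fusion, by 3.45 ± 0.43. Of 7 motor neuron markers 5 were tested, with 2 higher and 2 lower at E14.5 against E8.5, and Isl1 was at 29.5 ± 2.15 CPM and 6.08 ± 0.783 CPM at these stages.

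Smooth muscle shares Des, Tpm2 and several actin-binding proteins with skeletal muscle. Some of its markers moved with Des and Tpm2 at E9.5 and some with Tpm2 at E12. Of 7 smooth muscle markers, all tested, 5 were higher and 1 lower at E9.5 against E9, with a summed level of 357 to 371 CPM at E9.5 and 81.8 to 89.1 CPM at E9. Actg2, the enteric actin, was at 64.6 ± 4.67 CPM at E9.5 against 0.0971 ± 0.0896 CPM at E9, and back at 0.295 ± 0.132 CPM at E10. Myh11, the smooth muscle myosin, was at 29.3 ± 1.32 CPM at E9.5 and 0.385 ± 0.0644 CPM at E9. At E9.5 against E9, 7 members were higher and 1 lower, where 11.1% and 11.7% of all genes were, and Des and Tpm2 rose by 2.46 ± 0.21 and 0.96 ± 0.16. At E12 the summed smooth muscle level was 272 to 328 CPM, against 107 to 110.2 CPM at E11.5, and Acta2 was at 169 ± 20.5 CPM against 47.7 ± 0.435 CPM. Acta2, Tagln, Cnn1 and Actg2 were higher in this step, and Smtn and Myocd did not pass. Myh11 was lower (log2 fold change -0.85 ± 0.30, adjusted p = 0.0148). Des did not pass at E12 against E11.5 (log2 fold change -0.06 ± 0.26, adjusted p = 0.854). The part of smooth muscle in the levels of Des and Tpm2 was not tested.

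Heart muscle shares Actc1, Tnnt2, Tnnc1, Myh7, Myl4, Actn2, Ttn and Casq2 with the embryonic skeletal list. Of 15 heart markers, 8 were tested, and their summed level was 5.89 to 7.25 CPM at E8.5, 7.12 to 9.86 at E10.5, 11.47 to 14.6 at E11, 8.41 to 9.37 at E12.5, 12.03 to 14.8 at E13.5 and 17.4 to 22.5 at E14.5. The part of heart muscle in the shared members was not tested. The atrial natriuretic peptide Nppa and the heart factor Nkx2-5 did not pass the filter. Nppa had mean levels of 0.0358 to 0.310 CPM over the stages and Nkx2-5 of 0 to 0.125 CPM, with 0 at 5 of 11 stages. Myl7, the atrial light chain, was at 1.23 ± 0.353 CPM at E8.5, 1.26 ± 0.291 at E9, 1.07 ± 0.134 at E9.5, 1.25 ± 0.344 at E10, 0.703 ± 0.196 at E10.5, 0.225 ± 0.251 at E11, 0.208 ± 0.211 at E11.5, 0.604 ± 0.382 at E12, 0.364 ± 0.219 at E12.5, 0.232 ± 0.173 at E13.5 and 0.206 ± 0.196 at E14.5. At E14.5 it was lower than at E8.5 (log2 fold change -2.54 ± 0.66, adjusted p = 0.0011). Myh6, the alpha-myosin of heart, was at 0.289 to 0.940 CPM in the mean from E8.5 to E12.5, then at 1.47 ± 0.501 at E13.5 and 4.94 ± 1.27 at E14.5. Most of the summed heart marker level at E14.5 lay in listed markers other than Nppa, Nkx2-5, Myl7 and Myh6. Their single values are not given here.

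**Figure D3:**
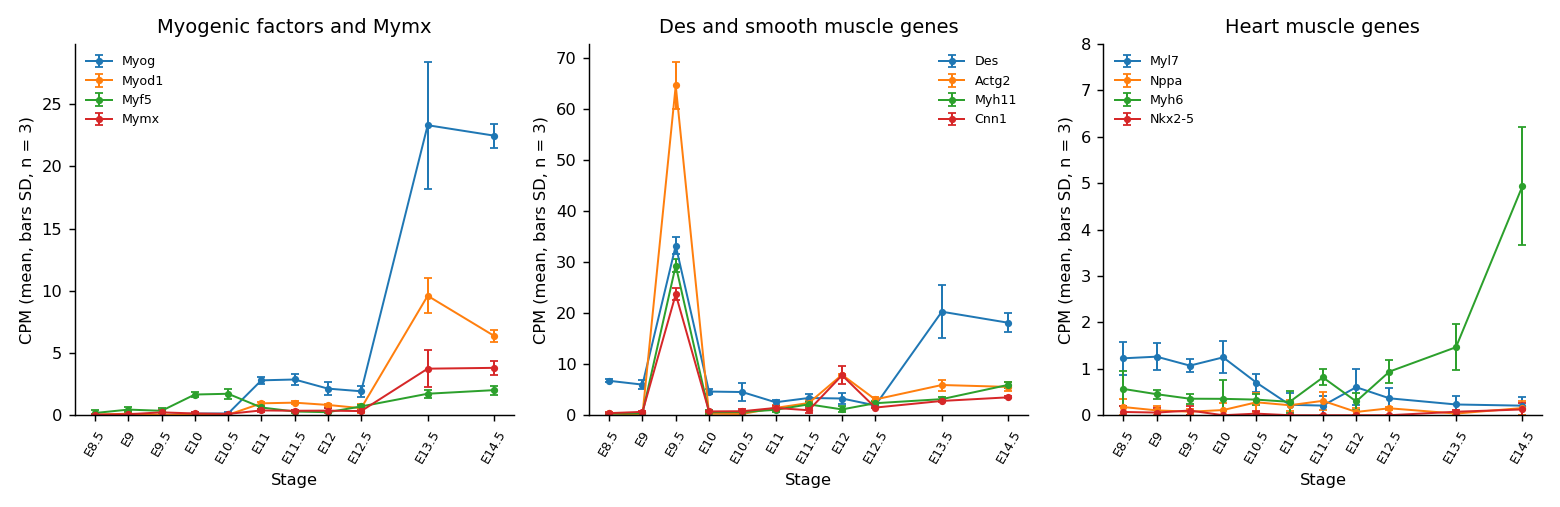
Mean CPM with SD bars (n = 3) against stage for myogenic factors with Mymx (left), Des with smooth muscle genes (middle) and heart muscle genes (right). Myog, Myod1 and Mymx step up at E13.5, Des shares its E9.5 peak with Actg2, Myh11 and Cnn1, and Nppa, Myl7 and Nkx2-5 stay under 1.3 CPM.

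Exonic length moved with the changes of the members at E12 and at E14.5. Across the 42 members, the rank correlation of exonic length with the log2 fold change was -0.61 at E12 against E11.5, where it was -0.30 across all 20073 genes, and 0.50 at E12.5 against E12, where it was 0.31. These correlations are across genes, which share libraries, and are given as descriptions. Of 10 members of at least 6000 bases, 8 were lower at E12 than at E11.5, with a median of -1.83, and of 11 members under 2000 bases 2 were lower, with a median of 0.27. At E14.5 against E13.5 the correlation was 0.53 in the members and 0.04 across all genes. The third E13.5 library was low for the long Ttn, at 10.2 CPM against 21.0 and 16.6 CPM in the other two, and for Neb, at 5.56 CPM against 15.3 and 14.48 CPM. It was high for the short Tnnc1, at 35.7 CPM against 17.6 and 15.2 CPM. Without it, 25 members were higher at E14.5 than at E13.5, and without the second E13.5 library 14 were.

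With a trend on exonic length removed from each library, an alternative chosen after seeing the data, the fall of Ttn at E12 against E11.5 was -1.27 with an adjusted p of 0.000219, against -3.89 before. Mybpc1 fell by nearly as much as before, with -3.25 with an adjusted p of 7.98e-13. The joint step held in that form: Ttn and Neb rose at E13.5 against E12.5 by 1.68 and 1.84, and Ryr1, which had not passed, had 0.32 with an adjusted p of 0.0422. Onset by E12.5 was then reached by 17 members in place of 26. At E14.5 against E8.5, Myh7 did not pass (0.25, adjusted p = 0.345) and Actn3 was lower (-0.58, adjusted p = 0.00477). 

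**Figure D4:**
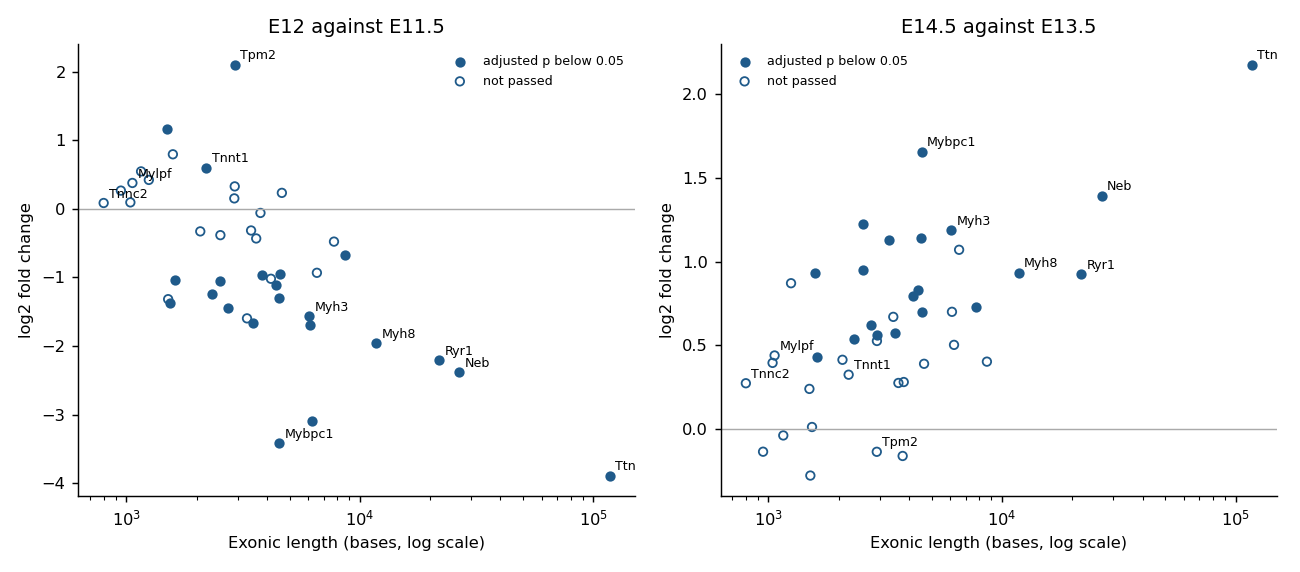
Log2 fold change of the 42 members against exonic length in bases (log axis), at E12 against E11.5 (left) and E14.5 against E13.5 (right); filled points have an adjusted p below 0.05. Ttn, Neb and Ryr1, the longest members, lie among the lowest on the left, with the shorter Mybpc1 and Xirp1, and all 3 lie above 0 on the right.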

How the data were processed

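Polyadenylated RNA of 33 libraries, 3 at each of 11 stages, was read as the deposited raw counts per gene, with the exonic length of each gene from the same table, per the file headers. The submitters' processing notes name cutadapt 1.9.1, HISAT2 2.0.1, HTSeq 0.6.1 and GRCm38; the annotation release, the strand setting and the treatment of multimapping reads were not given in the sources used here. Gene names came from a table pairing identifiers with symbols, and 55141 of 55401 identifiers matched. Columns name the stage and a letter, which was not read as the labels' replicate number; first, second and the third library mean the letters a, b and c.

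Counts were filtered with filterByExpr, scaled with TMM and fitted with edgeR 4.0.16 (R 4.3.3) by its quasi-likelihood test, with a mean per stage over all 33 libraries and 22 residual degrees of freedom. The p-values were adjusted by Benjamini-Hochberg over all 20073 genes tested, at a threshold of 0.05. The standard error of a log2 fold change is its size divided by the root of the test statistic. CPM carries no added constant. The floor for a stage at 0 was 3 counts over the stage, or 0.0660 CPM at E8.5, and covers counting error only. The code was tested on simulated counts.

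The members, lists, onset rule and tests were chosen with earlier results of these data known. Library values are given, in each role, for the members highest at E14.5 and for those with the earliest and the latest onset, for all members of small roles and for a member lower at E14.5. From each list of other genes, those with the largest changes among passing genes of at least 5 CPM are named, with the heart markers and regulators at every stage. Further members and other genes (Mymx, Ache, Actg2, Myh11 and Acta2 among them) are named after their values were seen. Alternatives were DESeq2 1.42.0, DESeq2 size factors, totals alone, other filters, other onset rules, no length correction, the column letter as a block, a fit leaving out all libraries of E11.5, of E12 and of E13.5, each library left out in turn and, chosen after seeing the data, a length trend removed.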

Additional observations from a re-analysis of the deposited data

How the results depend on the processing

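The joint steps kept their counts. With any single library left out, 40 to 41 members were higher at E14.5 against E8.5, 38 to 40 at E13.5 against E12.5 and 21 to 25 at E11 against E10.5. Of 629 values of single members at E14.5 against E8.5 under the alternatives, 621 kept their direction and side of the threshold, 7 no longer passed, 1 newly passed and 0 reversed. Those that no longer passed were Tcap, also without a filter (adjusted p = 0.102) and with the length trend removed (adjusted p = 0.121), and Myh7 with the length trend removed. The cause was not tested.

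The counts that moved were small or rested on the onset rule. Of the members, 1 was higher at E12 against E11.5 with DESeq2 size factors, totals alone, a stricter filter or the length trend removed, in place of 3. At E10.5 against E8.5, 5 were higher with totals alone and 6 without the libraries of E11.5, of E12 and of E13.5. At E12.5 against E12, 3 were lower with totals alone. At E11 against E10.5, 2 were lower without those libraries and 2 with the length trend removed, when 1 was also lower at E14.5 against E8.5. Scaling to totals alone moved the median of all genes by 0.43 at E14.5 against E8.5, -0.38 at E12 against E11.5 and 0.27 at E12.5 against E12.

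The median onset of receptor subunits was day 13 with DESeq2 size factors, E12.5 with totals alone, 11.75 at a minimum of 0.2 CPM, 9.75 at 10% of the E14.5 mean and 14 at 50%. That of sarcomere genes was day 11 at 0.2 CPM, E13.5 at 50% and day 12 with the length trend removed, and that of calcium release genes was day 8.5 at 10%, E13.5 at 50% and E13.5 with the length trend removed. Onset by E10.5 was reached by 15 members at 10%. Onset by E11 was reached by 22 at 0.2 CPM, by 23 at 10% and by 4 at 50%, and onset by E12.5 by 6 at 50% and by 17 with the length trend removed. The order of the roles thus depended on the rule.

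Without length correction the shares at E14.5 were 74.5% for Myh3, 19.97% for Myh8, 74.4% for Actc1, 80.5% for Tnnc1, 85.9% for Tnni1, 41.6% for Tnnt1, 40.1% for Tnnt2, 62.5% for Myl4, 74.3% for Actn2, 20.1% for Chrna1, 41.5% for Chrnb1 and 25.3% for Chrng. With single libraries left out, the counts ranged from 2 to 6 members higher at E10.5 against E8.5, 0 to 2 lower at E11 against E10.5 (2 without the second E12.5 library), 1 to 5 higher at E12 against E11.5, 3 to 9 lower at E12.5 against E12 and 14 to 25 higher at E14.5 against E13.5. The median onset ranged from day 13 to E13.5 for receptor subunits, at 13 without the first E11 or the first or second E11.5 library, and from E11.5 to E13.5 for calcium release genes.

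The column letters share only a name: deviations of libraries with the same letter correlated by -0.00840 on average, from -0.58 to 0.18. With the letter as a replicate block, 41 members were higher at E14.5 against E8.5, 39 at E13.5 against E12.5, and 7 lower at E12.5 against E12.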
